A study of Psammomys obesus with 8 samples.

Results

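The contigs described here are tandem repeats, assembled sequences in which a short unit follows itself, other than a large family with a 37-base unit. They were chosen from sequence alone. For each shift of 1 to 60 bases, and at most the contig's length divided by 2, the share of bases equal to the base one shift away was computed. Contigs were kept when the highest share reached 0.50 and the shift that gave it, here the best shift, lay outside 35 to 38 bases. In all, 4491 of 548060 contigs (0.819%) met this rule. They were 2420 contigs with a best shift of 1 to 6 bases, 1291 with 7 to 34 and 780 with 39 to 60. The contigs with a best shift of 35 to 38, the 37-base family, numbered 3848, and 539721 contigs fell below the share of 0.50.

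The libraries were made from hypothalamus of male fat sand rats (Psammomys obesus), a desert gerbil that becomes obese and diabetic on energy-rich food, all of them offspring aged 16 weeks. The 4 low-low libraries carry the diet label Low lipid and the 4 standard-low libraries Standard Lipid. The deposited design attributes the contrast to the diet of the fathers, the title of the series refers to that of the parents, and no other difference between the groups is labelled. Methylated DNA was captured with MethylMiner, a bead-bound methyl-CpG binding domain of the MBD2 protein, and sequenced, and the values are read counts per contig. A count of captured DNA depends on methylation and on the number of copies of a sequence together, and these cannot be told apart here because no input libraries were used. The totals over all contigs were 11646180 to 13533441 counts per library, and the count-weighted GC content was 48.8% to 49.7%. Tissue markers could not be checked, since the values describe captured DNA and not RNA.

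Tandem repeats fall into microsatellites, whose units are a few bases long, minisatellites, whose units are longer, and satellites, which form long blocks near centromeres and elsewhere. They gain and lose copies by slippage of the polymerase and by unequal exchange, so that copy number differs between individuals. In mammals the most common microsatellite is the CA repeat, which reads TG on the other strand. Methyl-CpG capture binds a repeat only where CpG sites lie in its units or near them on the captured fragment.

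The first sequences are shown because they are a set of related contigs with lower mean counts in standard-low, 2 of them past the test described further on. Contigs 1895531, 146427, 238952, 3376506 and 479385 are 101 bases long and alike in sequence, with CpG sites in a short segment repeated between runs of TG. The deposited sequences are given 5′ to 3′ with each CpG in capitals, and 146427, 3376506 and 479385 are shown as the reverse complement of the deposited strand so that all read alike.
contig 1895531: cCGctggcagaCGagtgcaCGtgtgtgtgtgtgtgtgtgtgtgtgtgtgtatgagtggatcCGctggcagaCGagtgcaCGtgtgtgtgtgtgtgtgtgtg
contig 146427: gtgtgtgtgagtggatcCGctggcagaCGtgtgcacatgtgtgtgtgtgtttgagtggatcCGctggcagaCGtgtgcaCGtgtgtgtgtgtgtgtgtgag
contig 238952: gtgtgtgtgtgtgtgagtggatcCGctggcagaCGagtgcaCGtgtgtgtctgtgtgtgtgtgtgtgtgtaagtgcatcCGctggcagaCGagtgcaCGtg
contig 3376506: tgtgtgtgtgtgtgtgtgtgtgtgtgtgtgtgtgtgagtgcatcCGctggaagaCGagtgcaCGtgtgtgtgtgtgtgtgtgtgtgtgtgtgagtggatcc
contig 479385: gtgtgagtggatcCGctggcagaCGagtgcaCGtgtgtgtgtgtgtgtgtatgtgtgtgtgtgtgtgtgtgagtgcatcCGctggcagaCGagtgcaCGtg

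The next 3 contigs are CA repeats that lost all or most of their counts in several standard-low libraries. Their CpG sites, again in capitals, are scattered through and beside the CA or TG runs.
contig 4319927: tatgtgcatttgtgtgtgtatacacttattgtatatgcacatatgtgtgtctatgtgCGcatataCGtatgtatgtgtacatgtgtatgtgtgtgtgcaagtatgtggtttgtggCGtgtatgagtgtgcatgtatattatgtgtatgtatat
contig 3633790: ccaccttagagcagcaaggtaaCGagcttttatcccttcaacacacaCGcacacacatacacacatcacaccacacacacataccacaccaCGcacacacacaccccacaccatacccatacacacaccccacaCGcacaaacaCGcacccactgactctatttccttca
contig 1609432: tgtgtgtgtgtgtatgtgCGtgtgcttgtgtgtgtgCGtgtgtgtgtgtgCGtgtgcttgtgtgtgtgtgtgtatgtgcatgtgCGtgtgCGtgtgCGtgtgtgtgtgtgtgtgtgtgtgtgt

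The following pair has similar 20-base units, given on opposite strands in the deposited table, and changed in opposite directions.
contig 4435385: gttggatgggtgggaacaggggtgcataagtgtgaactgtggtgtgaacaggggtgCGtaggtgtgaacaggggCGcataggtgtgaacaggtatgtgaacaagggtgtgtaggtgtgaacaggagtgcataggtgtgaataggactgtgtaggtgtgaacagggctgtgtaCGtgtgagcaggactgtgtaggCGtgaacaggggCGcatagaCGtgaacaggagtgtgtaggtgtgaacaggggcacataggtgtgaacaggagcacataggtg
contig 75960: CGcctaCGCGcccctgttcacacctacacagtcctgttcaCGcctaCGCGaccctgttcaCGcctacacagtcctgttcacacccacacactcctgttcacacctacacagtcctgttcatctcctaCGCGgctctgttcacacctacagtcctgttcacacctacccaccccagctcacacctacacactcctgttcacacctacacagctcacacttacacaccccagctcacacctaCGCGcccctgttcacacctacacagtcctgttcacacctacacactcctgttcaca

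The remaining examples show the variety of units among the contigs that differed between groups. Contig 653431 has its longest CA run at one end and shorter CA runs further in. Contig 1117012 is built of trinucleotides of the ATC kind with aagtcaaCGtcatcatc as the CpG-bearing interruption, and contig 862205 has an AG-rich run beside unique sequence.
contig 653431: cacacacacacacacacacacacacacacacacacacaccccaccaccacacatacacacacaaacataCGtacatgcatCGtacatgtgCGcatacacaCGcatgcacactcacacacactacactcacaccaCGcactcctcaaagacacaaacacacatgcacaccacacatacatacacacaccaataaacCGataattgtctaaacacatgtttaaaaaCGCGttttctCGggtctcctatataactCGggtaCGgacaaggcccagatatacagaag
contig 1117012: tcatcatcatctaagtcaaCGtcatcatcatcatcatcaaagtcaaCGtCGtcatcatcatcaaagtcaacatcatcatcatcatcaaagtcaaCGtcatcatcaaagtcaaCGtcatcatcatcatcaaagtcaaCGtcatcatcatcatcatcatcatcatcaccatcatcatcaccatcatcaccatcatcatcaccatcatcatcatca
contig 862205: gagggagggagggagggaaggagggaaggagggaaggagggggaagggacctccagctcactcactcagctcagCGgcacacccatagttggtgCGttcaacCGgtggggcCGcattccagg

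Contigs with the highest counts per kilobase are represented by an ATCC repeat, a 29-base repeat and a contig without any CpG.
contig 3684726: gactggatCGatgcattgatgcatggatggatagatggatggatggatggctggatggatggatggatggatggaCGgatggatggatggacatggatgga
contig 2701324: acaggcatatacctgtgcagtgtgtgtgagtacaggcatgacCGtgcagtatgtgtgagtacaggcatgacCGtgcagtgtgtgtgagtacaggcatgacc
contig 1735133: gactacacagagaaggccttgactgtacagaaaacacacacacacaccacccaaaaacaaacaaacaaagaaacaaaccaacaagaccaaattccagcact

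CA repeats dominated the short units. The unit was read from the longest unbroken stretch of each contig and reduced over rotations and strands. The unit was AC in 2174 contigs, 1985 of them with a best shift of 1 to 6. Counting longer units in which at least 50% of the steps are CA or AC, or TG or GT on the other strand, 2902 of the 4491 contigs were CA repeats, 2102 with shifts of 1 to 6, 621 with 7 to 34 and 179 with 39 to 60. A shift of 2 alone held 1523 contigs, of which 1470 were CA repeats. Even shifts up to 12 were more common than the odd ones beside them. The other short units were rare. The telomeric unit AACCCT was found in 79 contigs, AG in 54, ACAT in 45, ATCC in 40, ATC in 22, AGAT in 19 and AAGG in 15, and CG in none.

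**Figure D1:**
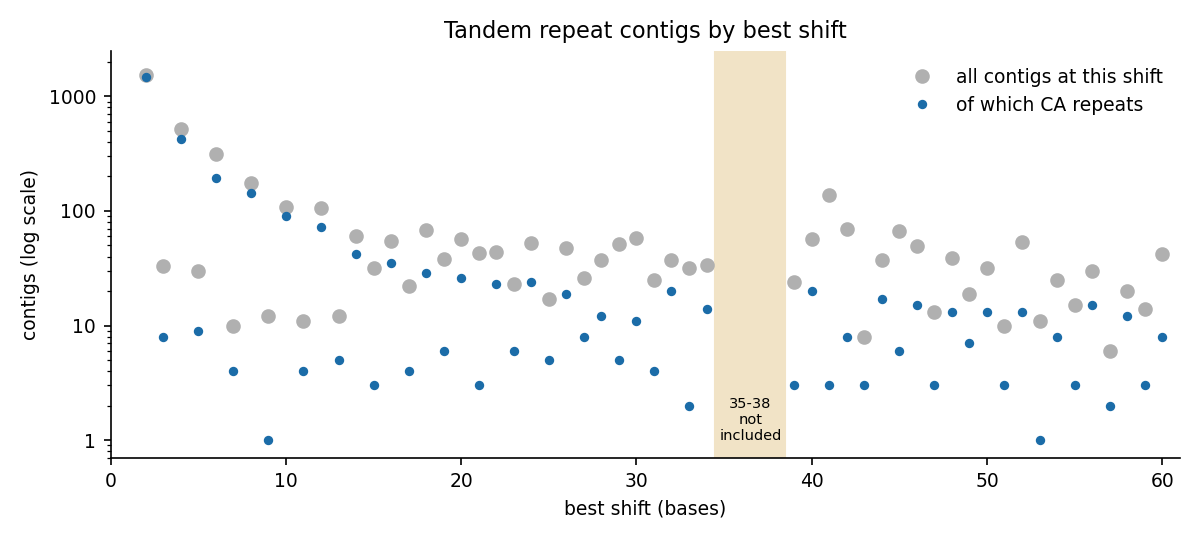
Number of tandem repeat contigs (y axis, log scale) at each best shift in bases (x axis). Grey points are all contigs at that shift and blue points those whose unit is a CA repeat, and shifts of 35 to 38 bases are not included. Shift 2 holds 1523 contigs, 1470 of them CA repeats, and shift 41 holds 139, of which 3 are CA repeats.

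Units of 39 to 60 bases were of another composition. A shift of 41 bases was the most common of that range, with 139 contigs and 3 CA repeats among them. Units of 7 or more bases were grouped by shared 8-base words, leaving out CA repeats and units that hold the telomeric AACCCT in any rotation. Units with few words outside CA or TG steps were also left out. The grouping gave 19 families of at least 5 contigs, with 203 contigs in all. The largest held 37 contigs with units such as aagatgaagatgctgatg. A family of 20 contigs, 16 of them at a shift of 29 bases, had the unit aatgtCGtcagggtgtactgtgtcctgac, with 1 CpG. A family of 9 contigs had the 22-base unit acaCGcatacatgtatcagcat. A family of 5 contigs, all with a 40-base unit, had 2 CpG sites in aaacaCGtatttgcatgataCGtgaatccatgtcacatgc and a median of 54.5 CpG per kilobase. Relatives of the 37-base family were few. At least 20% of the 12-base words of a contig were shared with that family in 0 contigs of shifts 1 to 6, 12 of shifts 7 to 34 and 5 of shifts 39 to 60, against 3711 of the family's own 3848.

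The repeats were short and, in the shortest units, poor in CpG. Median lengths were 217, 183 and 142 bases in the groups of shift 1 to 6, 7 to 34 and 39 to 60, against 442 for the whole table. The median share of repeated bases was 0.558, 0.600 and 0.621 in the same order, and 787 contigs reached 0.70. Median CpG content was 15, 22.9 and 20.3 per kilobase, against 21.6 in the table and 39.6 in the 37-base family. No CpG at all was present in 169 contigs (3.76%), against 0.0914% of the table and 0.130% of the 37-base family. Among contigs of at most 150 bases that are not tandem repeats the share was 2.79%. The mean count per library had medians of 15.1, 14.9 and 15.1 in the 3 groups, against 17.4 in the table. Per length, however, the level was higher than in the table. CPM, a count scaled by library size, was divided by contig length. Its medians per kilobase were 6.05, 6.93 and 8.29, against 3.48 in the table, but contigs of at most 150 bases that are not tandem repeats stood at 9.63. Among contigs of at least 150 bases the medians were 5.19, 5.07 and 4.93, so that the order of the 3 groups did not hold with short contigs left out. Contigs whose unit holds a CpG, 1089 in number, had a median level of 8.22 CPM per kilobase, against 6.21 in the 3402 whose unit holds none. The classes also differ in length, with medians of 146 and 210 bases, and at shifts of 1 to 6 the order was the other way, at 5.93 with a CpG in the unit (22 contigs) and 6.06 without. Across contigs, CpG content and level per length had a Spearman rho of 0.332, 0.223 and 0.106 in the 3 groups of shift, against 0.481 over the table. These contigs share libraries and sequence, so the values are descriptions without a test.

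At the threshold of the rule, contigs 1015181 and 1025200 lay just inside, both with a share of 0.50 and a best shift of 2. Contig 1735133, described further on, had the same share. Contigs 543839 and 1182216 lay just outside, both with a share of 0.499 and with best shifts of 24 and 2. Their CPM ranged over the libraries from 0.592 to 1.69 in contig 1015181 and from 0.590 to 1.45 in contig 1025200, both of which lay inside. The ranges outside were 1.35 to 2.61 in contig 543839 and 0.743 to 2.87 in contig 1182216.

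Summed over each group of shifts, the repeats made up similar parts of the libraries from both diets, and 1 low-low library stood above the rest. Repeats with shifts of 1 to 6 summed to 4436, 3673, 3670 and 3602 CPM in low-low libraries 1 to 4 and to 3936, 3431, 3310 and 4141 CPM in standard-low libraries 1 to 4. The means were 3845 ± 395 and 3704 ± 398 CPM (SD, n = 4), a ratio of standard-low to low-low of 0.963. Low-low 1 was the highest of the 8 and the groups overlapped. Repeats with shifts of 7 to 34 summed to 2345, 2018, 2042 and 1959 CPM in low-low and to 2103, 1860, 1869 and 2124 CPM in standard-low, a ratio of 0.951. Repeats with shifts of 39 to 60 summed to 1463, 1200, 1195 and 1198 CPM in low-low and to 1272, 1240, 1127 and 1318 CPM in standard-low, a ratio of 0.981. The groups overlapped in both, again with low-low 1 at the top. Without low-low 1 the ratios were 1.02, 0.991 and 1.03.

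The excess in low-low 1 ran through many contigs. The ratio of a contig's CPM in low-low 1 to its mean over the other 3 low-low libraries had a median over contigs of 1.18, 1.15 and 1.21 in the 3 groups of shift, against 0.996 for contigs that are not tandem repeats and 0.732 for the 37-base family. Low-low 1 was the highest of the 4 low-low libraries in 43.5% of the repeat contigs, against 24.5% of the table. In standard-low, libraries 1 and 4 were above libraries 2 and 3 in each group of shift. The 37-base family took another order, with low-low 1 (5846 CPM) and standard-low 1 (6030 CPM) the lowest of the 8. The labels name no batch or date by which to compare these libraries.

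**Figure D2:**
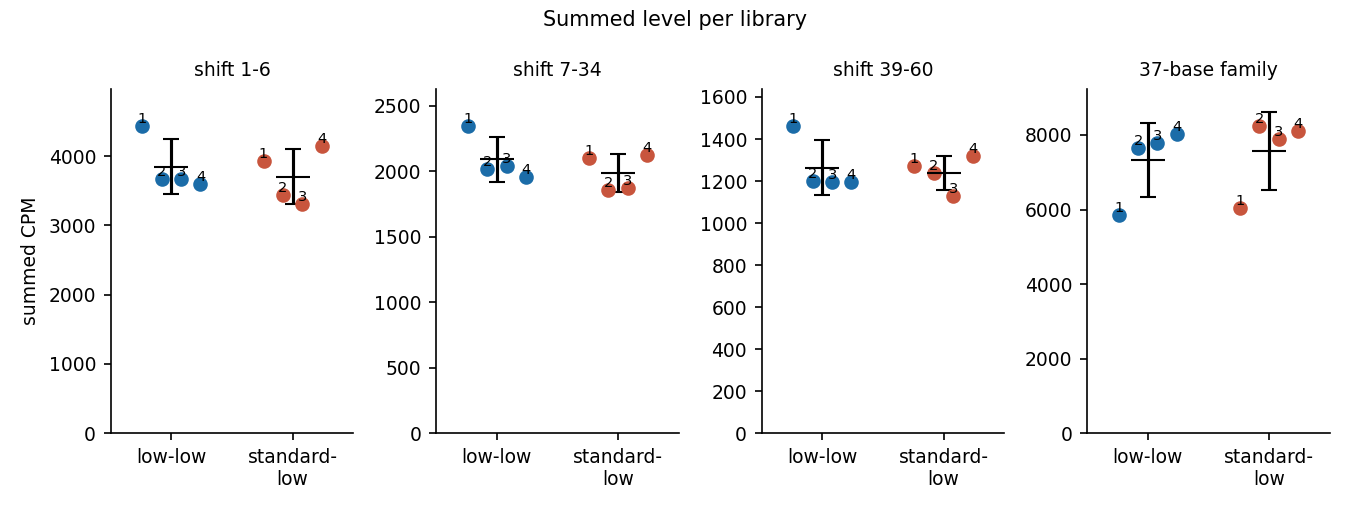
Summed CPM (y axis, from 0) of the 3 groups of best shift and of the 37-base family in each library, with low-low in blue and standard-low in red. Points are libraries marked with their number, the horizontal mark is the mean and the bar the SD over 4 libraries. Low-low 1 is the highest point in each of the 3 groups, at 4436, 2345 and 1463 CPM, and among the lowest in the 37-base family.

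CA repeats taken alone showed the same pattern. They summed to 5341, 4413, 4388 and 4272 CPM in low-low libraries 1 to 4 and to 4697, 4079, 3888 and 4959 CPM in standard-low. The ratio was 0.957 and the groups overlapped, with low-low 1 and standard-low 4 the highest of their groups.

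Among the families with longer units, the 37 contigs of the largest summed to 65.8, 49.9, 47.3 and 50.4 CPM in low-low and to 50.6, 42.6, 40.3 and 53.0 CPM in standard-low, with none called. The groups overlapped, and low-low 1 was the highest. The 20 contigs with the 29-base unit summed to 51.9, 33.5, 32.8 and 32.2 CPM in low-low and to 31.9, 33.4, 22.4 and 38.2 CPM in standard-low, with none called. The 9 contigs with the 22-base unit summed to 23.3, 21.9, 22.3 and 24.3 CPM in low-low and to 14.1, 12.3, 17.7 and 24.1 CPM in standard-low. Here standard-low 4 lay among the low-low libraries and the other 3 standard-low libraries lay below them, and no contig of the family was called. A family of 13 contigs with pentamers of the AATGG type, whose sequence is not given here, is of unclear origin, and whether it is sand rat DNA was not tested. It summed to 19.8, 5.47, 11.7 and 8.85 CPM in low-low and to 32.5, 20.3, 24.1 and 17.2 CPM in standard-low. Standard-low was 2.05 times low-low in mean, and low-low 1 lay above standard-low 4. One member of this family, contig 403682, was called.

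Contig by contig, the repeats were shifted slightly downward in standard-low. The median log2 fold change of standard-low over low-low, fitted with edgeR, was -0.06, -0.07 and -0.05 in the 3 groups of shift and 0.00 over the table. Positive values made up 42.4% of the repeats and 50.3% of the table. Without low-low 1 the medians were 0.00, -0.03 and 0.01, so the sign changed without that library in 2 of the 3 groups. Other libraries moved the medians too. For shifts of 1 to 6 the median was -0.02 without standard-low 2, -0.02 without standard-low 3, -0.10 without standard-low 1 and -0.12 without standard-low 4. For shifts of 7 to 34 it was -0.04 without standard-low 2, -0.11 without standard-low 1 and -0.11 without standard-low 4. For shifts of 39 to 60 it was -0.02 without standard-low 3, -0.09 without low-low 4 and -0.09 without standard-low 4. In 46 contigs every standard-low library lay above every low-low library (1.02%, against 1.63% of the table), and in 102 every one lay below (2.27%, against 1.61%). Together they were 3.30% of the repeats, against 3.24% of the table.

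The spread of the repeats between libraries of the same group was above that of non-tandem contigs of like count, as it also was in other short contigs. The median coefficient of variation of CPM within low-low was 26.7%, 27.9% and 28.6% in the 3 groups of shift, against 24.1% in contigs matched on mean count that are not tandem repeats. Within standard-low it was 30.8%, 31.1% and 31.2%, against 27.0% to 27.1%. Contigs of at most 150 bases that are not tandem repeats had 27.1% in low-low and 28.8% in standard-low, and the 37-base family had 30.3% and 28.5%. An unadjusted edgeR p under 0.05 was reached by 494 repeats (11%), against 5.68% of the table, 12.4% of the 37-base family and 8.62% of the contigs of at most 150 bases that are not tandem repeats.

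In the edgeR quasi-likelihood test with Benjamini-Hochberg adjustment over all 548060 contigs, 16 repeats passed an adjusted p of 0.05. That is 0.356% of them, against 0.0268% of the table. In the sets most like them the share was 0.377% (34 of 9018 contigs of at most 150 bases that are not tandem repeats) and 1.48% (57 of the 3848 contigs of the 37-base family). They were 3 with shifts of 1 to 6, 7 with 7 to 34 and 6 with 39 to 60, and 7 were higher and 9 lower in standard-low, against 0.0203% and 0.00657% of the table in those directions. The 2 groups of libraries did not overlap in 9 of the 16, 3 higher and 6 lower, against 1.63% and 1.61% of the table. The test that picked the 16 used the same values, so this is not a separate result. Counts were small: in 6 contigs at least 1 library had no count, in 9 at least 1 library had 0 or 1, and 5 contigs were at most 150 bases long. CA repeats made up 6 of the 16, and 1, contig 2139654, held no CpG. The number depended on the fit. Limma voom called 3 repeats, against 0.00912% of the table, and DESeq2 called 1, contig 4319927, against 0.00584%, and these were all among the 16. With the replicate number as a block in edgeR 28 repeats passed, against 0.0376% of the table, and the 16 were among them, although the numbers were not found to pair the libraries. A robust edgeR fit, which called 80 contigs in the whole table, kept 9. It lost contigs 3633790, 1895531, 295775, 162925, 238952, 3222324 and 1609432 at adjusted p of 0.146 to 0.893. Only contigs 4319927 and 4435385 passed in each of the 8 edgeR fits that left out 1 library.

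**Figure D3:**
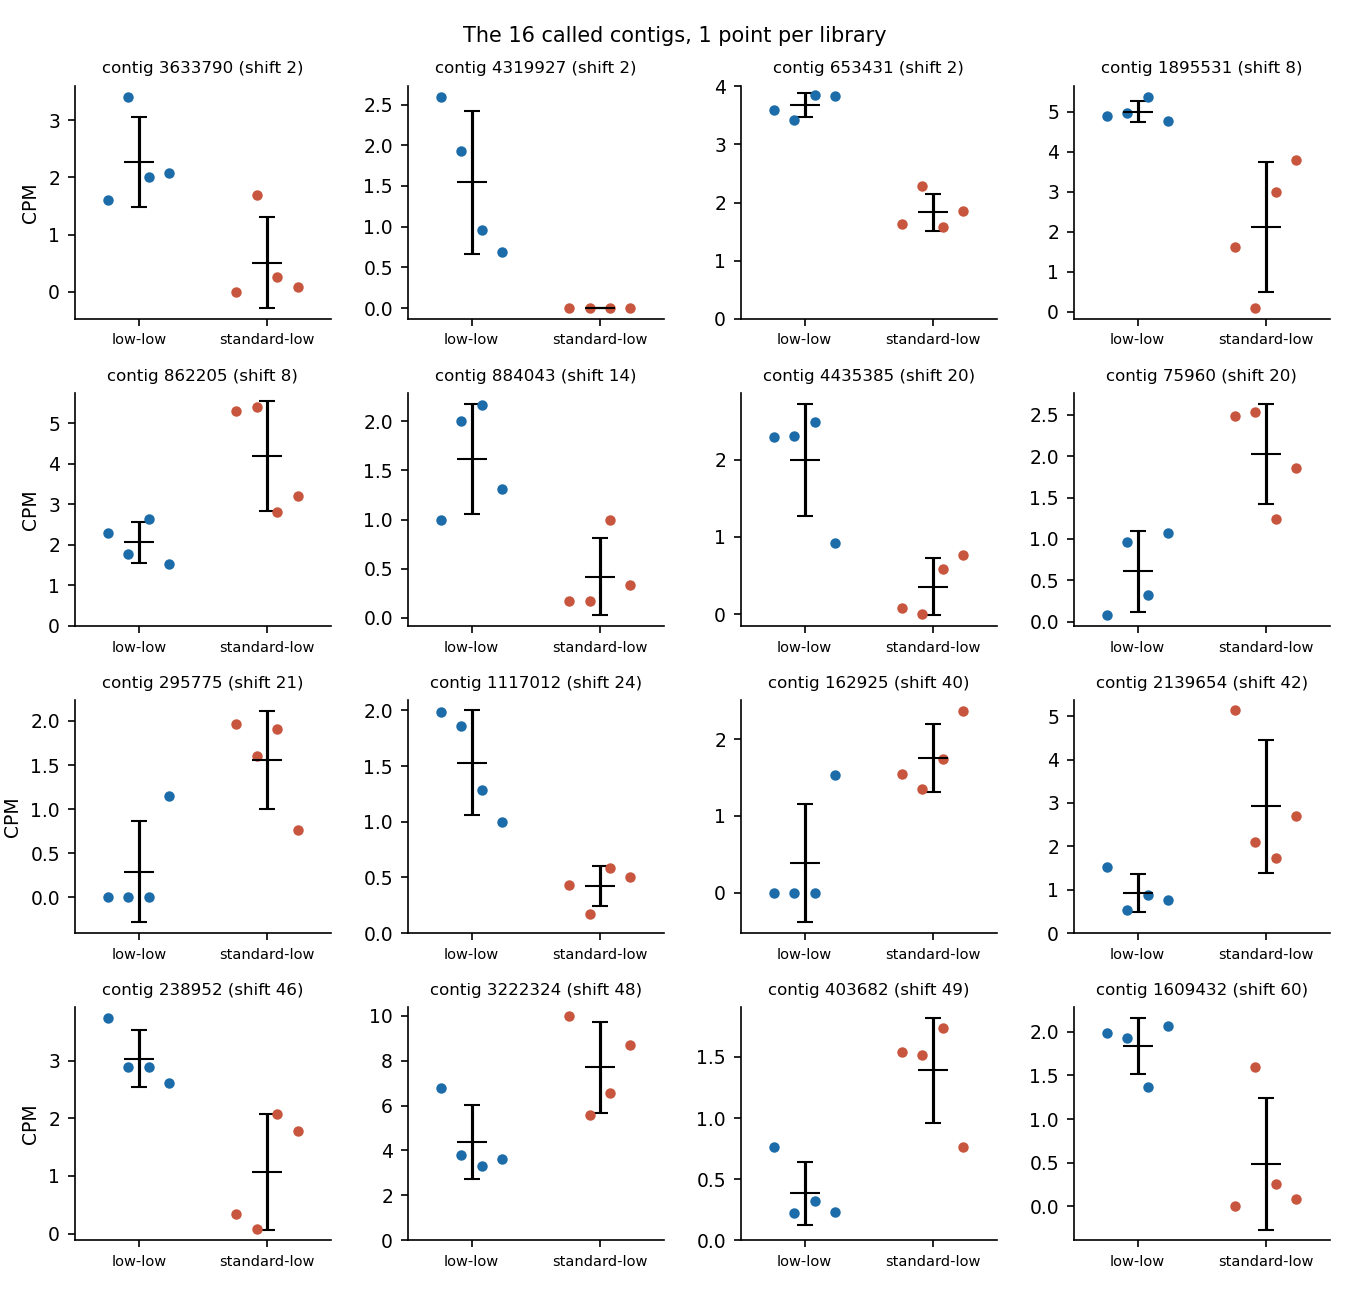
CPM (y axis, a separate scale in each panel) of the 16 contigs with an edgeR adjusted p under 0.05, with low-low in blue and standard-low in red. Points are libraries, the horizontal mark is the mean and the bar the SD over 4 libraries. Contig 4319927 has no count in any standard-low library, and contigs 295775 and 162925 have counts in 1 low-low library only.

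The contig that lost its counts altogether was a CA repeat of 153 bases. Contig 4319927 had 34, 26, 12 and 9 counts in low-low libraries 1 to 4 and 0 in each standard-low library. These 81 counts equal the lowest summed count of any contig, so its place in the table rests on its low-low counts alone. Its fold change and p-values are therefore not independent of that minimum. There was no overlap. With a floor of 3 counts over the standard-low group it was at least 24.4-fold lower (edgeR adjusted p = 4.31e-09). The adjusted p was at most 5.37e-07 with any 1 library left out and 7.63e-05 with DESeq2, but limma voom gave 0.891. It had no relative in the table at 85% identity over 50% of its length.

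A pair of CA repeats, contigs 3633790 and 1609432, shared a pattern across standard-low libraries. Contig 3633790 had 21, 46, 25 and 27 counts in low-low and 0, 20, 3 and 1 in standard-low, and its mean fell 4.51-fold from 2.28 ± 0.789 to 0.505 ± 0.795 CPM (SD, n = 4, edgeR adjusted p = 0.00159). Contig 1609432, a 60-base unit of CA runs with CpG interruptions, had 26, 26, 17 and 27 counts in low-low and 0, 19, 3 and 1 in standard-low, a 3.8-fold lower mean (edgeR adjusted p = 0.0236). In both contigs standard-low 2 lay among the low-low libraries while the other 3 standard-low libraries lay near 0, so the groups overlapped. The first call ended without low-low 2 (edgeR adjusted p = 0.139), standard-low 1 (0.0542) or 4 (0.0677). The second ended without low-low 1 (0.0749), 2 (0.175), 4 (0.128), standard-low 1 (0.300), 3 (0.0876) or 4 (0.372). Contig 1609432 had 588 relatives in the table at 85% identity over 50% of its length, and none of them was among the 16.

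The 5 related contigs of 101 bases all had a lower mean in standard-low, and 2 of them passed the test. Contig 1895531 had 64, 67, 67 and 62 counts in low-low and 19, 1, 36 and 45 in standard-low. Every standard-low library lay below low-low, and standard-low 2 was nearly empty. Its mean fell 2.35-fold, from 5.0 ± 0.266 to 2.12 ± 1.63 CPM (SD, n = 4, edgeR adjusted p = 0.0108). Contig 238952 had 49, 39, 36 and 34 counts in low-low and 4, 1, 25 and 21 in standard-low, a 2.84-fold lower mean (edgeR adjusted p = 0.0108). Again the groups did not overlap, with standard-low 1 and 2 the lowest. Both passed with limma voom (adjusted p = 0.0171 and 0.0402) but not with DESeq2. The call of 1895531 ended without low-low 2 (edgeR adjusted p = 0.0883), 3 (0.101), standard-low 1 (0.156) or 2 (0.110). That of 238952 ended without low-low 1 (edgeR adjusted p = 0.0971), 2 (0.0624), standard-low 1 (0.253) or 2 (0.148).

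At 85% identity over 50% of its length, contig 1895531 had 16 relatives. The 12 that are not tandem repeats of the rule summed to 18.3, 19.8, 15.7 and 21.2 CPM in low-low and to 19.5, 19.0, 17.4 and 16.3 CPM in standard-low, a ratio of 0.962. The groups overlapped in each of these 12 and none was called. The other 4, at 90% identity or more over at least 60% of it, included 238952 and 3 contigs that were not called, and this closer limit was chosen after the values had been seen. Contig 146427 had 30, 22, 21 and 25 counts in low-low and 1, 0, 19 and 16 in standard-low (edgeR adjusted p = 0.449). Contig 3376506 had 28, 25, 25 and 26 in low-low and 6, 2, 24 and 13 in standard-low (edgeR adjusted p = 0.554), and contig 479385 had 23, 20, 21 and 18 in low-low and 6, 1, 14 and 6 in standard-low (edgeR adjusted p = 0.179). The groups did not overlap in 146427 and 479385 and overlapped in 3376506. In all 5 contigs standard-low 2 held the lowest count, between 0 and 2, and standard-low 1 lay below each low-low library. Summed, the 5 contigs had 194, 173, 170 and 165 counts in low-low and 36, 5, 118 and 101 in standard-low, a 2.47-fold lower mean. The 3 groups of shift all held at least 1 of the 5, with best shifts of 8, 44, 46, 4 and 10, so that one sequence family was divided between them by the spacing of its TG runs. A 14-base word of theirs, ACGTGCACTCGTCT, was found in 4 contigs of the whole table, all among these 5. The 5 contigs share sequence and may share reads, so they are not independent measurements.

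**Figure D4:**
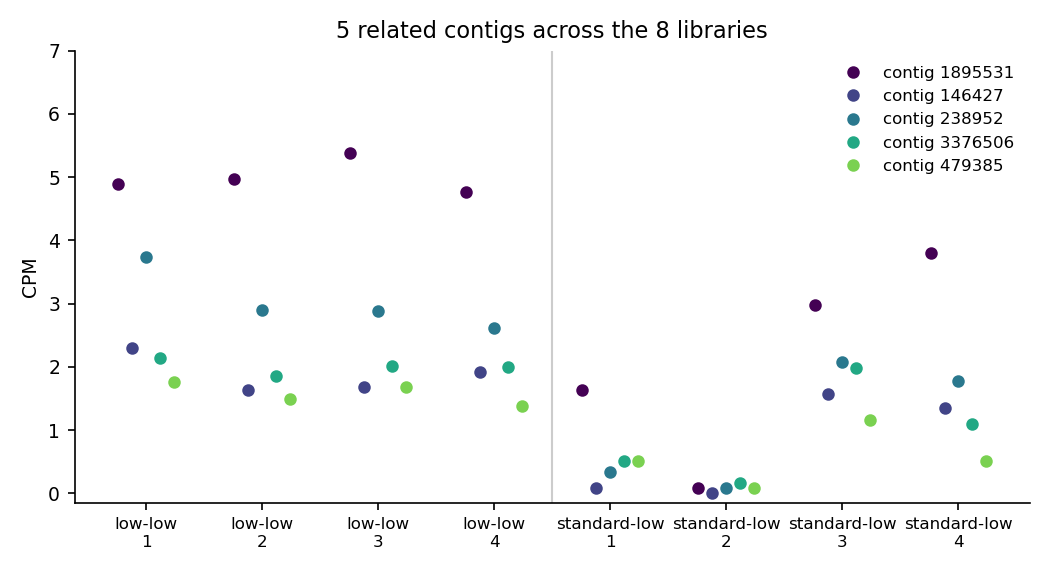
CPM (y axis) of contig 1895531 and its 4 relatives in each of the 8 libraries (x axis), 1 point per contig and library, with a vertical line between low-low and standard-low. All 5 contigs stand near 0 in standard-low 2, and standard-low 1 is below each low-low library in every contig.

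Contigs 4435385 and 75960 have similar but not identical units and changed in opposite directions, and neither had a relative in the table at 85% identity over 50% of its length. The lower one, 4435385, with the unit aacaggggtgCGtaggtgtg, had 30, 31, 31 and 12 counts in low-low and 1, 0, 7 and 9 in standard-low. The groups did not overlap, and its mean fell 5.61-fold, from 2.0 ± 0.725 to 0.357 ± 0.371 CPM (SD, n = 4, edgeR adjusted p = 0.000176). The call held with each library left out, with edgeR adjusted p of at most 0.00869, but not with limma voom (0.879) or DESeq2. The higher one, 75960, with the unit aacaggactgtgtaggtgtg, had 1, 13, 4 and 14 counts in low-low and 29, 30, 15 and 22 in standard-low. No libraries of the 2 groups overlapped, although low-low 4 and standard-low 3 differed by 1 count, and the mean rose 3.33-fold from 0.610 ± 0.487 to 2.03 ± 0.606 CPM (edgeR adjusted p = 0.0127). This call ended without low-low 1 (edgeR adjusted p = 0.192), 3 (0.219), standard-low 1 (0.139) or 2 (0.0756). The 14-base word CCTGTTCACACCTA common to both, or its reverse complement, was found in 7 contigs of the table, of which these 2 were the tandem repeats of the rule and the called ones.

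Contig 653431 had the most even counts of the lower contigs. It had 47, 46, 48 and 50 counts in low-low and 19, 27, 19 and 22 in standard-low, with 11 CpG sites in 283 bases. Every low-low library lay above every standard-low library, and its mean fell 2.0-fold from 3.68 ± 0.210 to 1.83 ± 0.320 CPM (SD, n = 4, edgeR adjusted p = 0.0310). The fold change was nearly the same with any library left out, but the edgeR adjusted p then lay above 0.05 without low-low 1 (0.0659), 2 (0.114), 3 (0.184) or 4 (0.133) and without standard-low 1 (0.187), 3 (0.0953) or 4 (0.139). Limma voom gave an adjusted p of 0.118.

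The other 2 lower contigs had longer units. Contig 884043, with the 14-base unit aaggaCGagtgtgc, had 13, 27, 27 and 17 counts in low-low and 2, 2, 12 and 4 in standard-low, a 3.87-fold lower mean (edgeR adjusted p = 0.0141). Standard-low 3 lay just above low-low 1 in CPM, so the groups overlapped. The call ended without low-low 2 (edgeR adjusted p = 0.233), 3 (0.237), standard-low 1 (0.175), 2 (0.104) or 4 (0.127). The unit itself was found in 6 contigs of the table, 4 of them tandem repeats of the rule. Of the uncalled 3, contig 888161 had 15 to 18 counts in low-low and 5 to 11 in standard-low, contig 3451033 had 6 to 18 and 5 to 14, and contig 3227640 had 8 to 13 and 10 to 20. Contig 888161 thus lay lower in every standard-low library (edgeR adjusted p = 0.827), and in the other 2 the groups overlapped. Contig 1117012, the ATC repeat with the 24-base unit aaagtcaaCGtcatcatcatcatc, had 26, 25, 16 and 13 counts in low-low and 5, 2, 7 and 6 in standard-low. No library of one group lay within the range of the other, and the mean was 3.64-fold lower (edgeR adjusted p = 0.0154). The call ended without low-low 1 (edgeR adjusted p = 0.133), 2 (0.213), standard-low 1 (0.0744), 2 (0.126) or 4 (0.0579).

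Of the 7 higher contigs, 2 were missing from the same 3 low-low libraries. Contig 295775, with the 21-base unit aaccagctaacCGacccacct, had 0, 0, 0 and 15 counts in low-low and 23, 19, 23 and 9 in standard-low, a 5.41-fold higher mean (edgeR adjusted p = 0.0110). Contig 162925, with a 40-base unit of CA runs, had 0, 0, 0 and 20 counts in low-low and 18, 16, 21 and 28 in standard-low, a 4.56-fold higher mean (edgeR adjusted p = 0.0246). In both, low-low 4 held counts like those of standard-low, and low-low 4 lay above standard-low 4 in the first and above standard-low 2 in the second, so the groups overlapped. The first call ended without low-low 1 (edgeR adjusted p = 0.123), 2 (0.295), 3 (0.222) or standard-low 1 (0.106). The second ended without low-low 1 (edgeR adjusted p = 0.212), 2 (0.464), 3 (0.378), standard-low 1 (0.0641) or 4 (0.325). With low-low 4 left out the edgeR adjusted p fell to 3.97e-08 and 4.00e-09.

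Contig 2139654 was the only called repeat without a CpG and the richest in A and T, with a GC content of 21.3%. Its 42-base unit is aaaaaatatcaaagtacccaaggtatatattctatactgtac. It had 20, 7, 11 and 10 counts in low-low and 60, 25, 21 and 32 in standard-low, and the groups did not overlap. The mean rose 3.16-fold, from 0.925 ± 0.430 to 2.92 ± 1.53 CPM (SD, n = 4, edgeR adjusted p = 0.00101). Library 1 was the highest of both groups. The call held with limma voom (adjusted p = 0.0499) and ended without low-low 2 (edgeR adjusted p = 0.0579) or standard-low 1 (0.257).

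Contig 862205, the AG-rich run beside unique sequence, had 30, 24, 33 and 20 counts in low-low and 62, 64, 34 and 38 in standard-low. The groups did not overlap, with low-low 3 and standard-low 3 close, and the mean was 2.03-fold higher (edgeR adjusted p = 0.0275). The call ended without low-low 2 (edgeR adjusted p = 0.326), 4 (0.285), standard-low 1 (0.352) or 2 (0.251). Contig 3222324, with a 48-base unit, had 89, 51, 41 and 47 counts in low-low and 117, 66, 79 and 103 in standard-low, a 1.76-fold higher mean (edgeR adjusted p = 0.0445). Low-low 1 lay above standard-low 2 and 3, so the groups overlapped. The call ended without low-low 2 (edgeR adjusted p = 0.505), 3 (0.553), 4 (0.394), standard-low 1 (0.544) or 4 (0.372).

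Contig 403682 was the called member of the AATGG-type family, whose organism of origin is unclear. It had 10, 3, 4 and 3 counts in low-low and 18, 18, 21 and 9 in standard-low, a 3.61-fold higher mean (edgeR adjusted p = 0.0356). Low-low 1 and standard-low 4 had almost the same CPM, so the groups overlapped. The call ended without low-low 2 (edgeR adjusted p = 0.424), 3 (0.24), 4 (0.255), standard-low 1 (0.149), 2 (0.0876) or 3 (0.117). The 5 contigs with the plain unit AATGG summed to 6.41, 2.44, 2.55 and 4.27 CPM in low-low and to 9.79, 5.49, 6.25 and 4.93 CPM in standard-low, and the groups overlapped.

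Near absence from single libraries was seen in a small part of the repeats. The share was above that of short contigs that are not tandem repeats and below that of the 37-base family. A contig was counted as nearly absent from a library when its CPM there was below 10% of its own median over the 8 libraries, a limit chosen after the data had been seen. This occurred in at least 1 library for 93 of the 4491 repeats (2.07%). The share was 1.40% at shifts of 1 to 6, 2.48% at 7 to 34 and 3.46% at 39 to 60. It was 3.77% in the 37-base family, 0.138% in contigs that are not tandem repeats and 0.987% in the latter at a length of at most 150 bases. Of the 93, 66 were nearly absent from 1 library, 21 from 2, 5 from 3 and 1 from 4. By library, nearly absent repeats numbered 10, 11, 25 and 4 in low-low 1 to 4 and 26, 24, 12 and 15 in standard-low 1 to 4. Both groups of libraries held such contigs. The 37-base family had another distribution, with 92 and 82 contigs nearly absent from low-low 2 and 3 and 1 from standard-low 2.

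**Figure D5:**
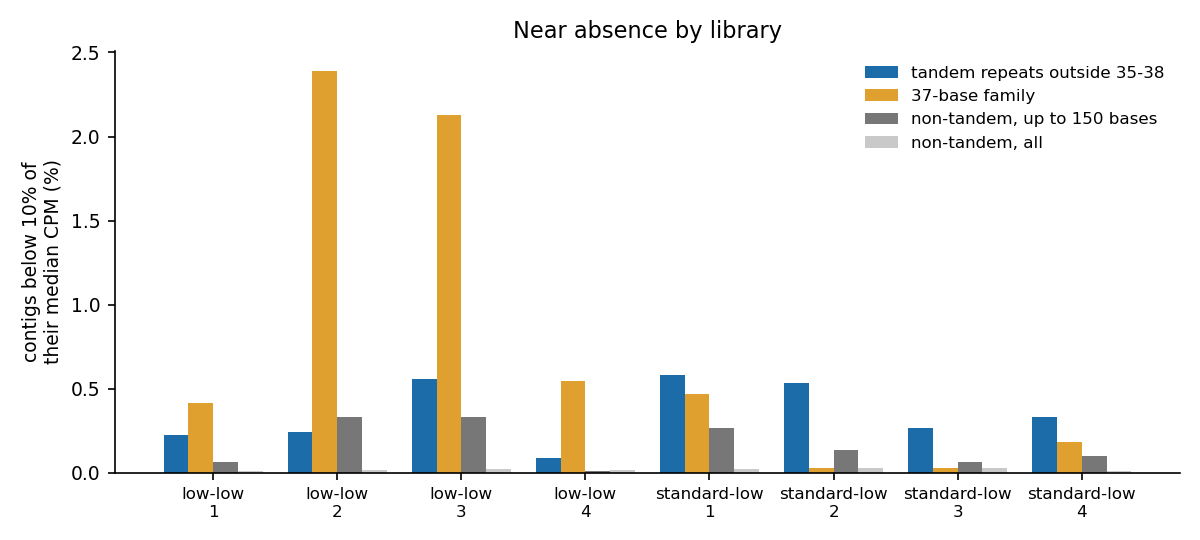
Share of contigs (y axis, %) whose CPM in a library (x axis) was below 10% of the contig's median over 8 libraries. Bars are the 4491 tandem repeats outside 35 to 38 bases, the 37-base family, contigs of at most 150 bases that are not tandem repeats, and all contigs that are not. Low-low 3, standard-low 1 and standard-low 2 have the most nearly absent repeats, with 25, 26 and 24.

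Several abundant repeats with such gaps were not called. Contig 998364, of the family with the 22-base unit, had 45, 37, 39 and 39 counts in low-low and 18, 0, 22 and 28 in standard-low (edgeR adjusted p = 0.236). Contig 4213984, of the family with the 40-base unit, had 31, 19, 0 and 30 in low-low and 47, 34, 46 and 36 in standard-low (edgeR adjusted p = 0.118). The groups did not overlap in either contig, and each was empty in a single library. Contig 1602307, a 52-base unit of CA runs, had 16, 50, 28 and 26 counts in low-low and 0, 0, 11 and 36 in standard-low, and contig 2044815, with the unit acacaggg, had 48, 18, 13 and 16 in low-low and 0, 20, 25 and 23 in standard-low. Among the shortest units, contig 2350309 had 21, 34, 45 and 41 in low-low and 32, 13, 24 and 1 in standard-low, and contig 398297 had 36, 9, 2 and 47 in low-low and 30, 22, 24 and 24 in standard-low. The groups overlapped in these 4. Standard-low 1 had no count in the first 2, and the lowest library was standard-low 4 in contig 2350309, with 1 count, and low-low 3 in contig 398297, with 2.

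The repeats with the highest level per length showed no such gaps, and none was called. Most of those named here are 101 bases long. The highest was contig 1735133, at 186 CPM per kilobase without a CpG, a long run of CA and AAAC steps with a share of 0.50. It had 14.8 to 20.9 CPM in low-low and 17.5 to 22.5 in standard-low, and the groups overlapped (edgeR adjusted p = 0.805). The ATCC repeat 3684726 had 10.9 to 16.1 CPM in low-low and 9.46 to 11.2 in standard-low, at 117 CPM per kilobase. The CA-rich contig 341072 stood at 99.9 CPM per kilobase. Contig 1830693, an AG repeat, stood at 107, contig 1882412, a CA repeat, at 81.1 and contig 4225569, with a 60-base unit, at 78.2. The 29-base repeat 2701324 stood at 75.1 and the ATCC repeat 2789043 at 54.4. In these 8 contigs the groups overlapped, and the edgeR adjusted p lay between 0.805 and 0.984.

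A match to mouse was rare among the repeats. The deposited table gives one for 179 of them (3.99%), against 38% of the table, in 107, 49 and 23 contigs of the 3 groups of shift. The match lay inside a mouse gene for 96 contigs in 93 genes, and none of these was called, with log2 fold changes of -1.07 to 1.08 and an edgeR adjusted p of at least 0.622. Positions are those of the table on a mouse build not given in the sources used here, and whether a match lies in an exon or an intron was not analysed. Among the 36 repeats inside a gene with a shift of 7 to 60 bases, the shift was a multiple of 3 in 27 (75.0%), against 711 of all 2071 repeats with such shifts (34.3%) and 671 of the 1999 without a mouse match (33.6%). Of the 28 with at least 100 aligned bases it was so in 22 (78.6%). A multiple of 3 keeps the reading frame when a unit is added to a coding sequence.

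Some named matches lie in genes that encode proteins with repeats. Contig 1596658 matched mouse chromosome 11 from 69734692 to 69735734 in Polr2a, the largest subunit of RNA polymerase II, whose C-terminal tail is a repeated peptide. Its unit of 21 bases is aacatctcccagctactcccc. It had 68, 100, 96 and 83 counts in low-low and 85, 60, 103 and 53 in standard-low, and the groups overlapped (edgeR adjusted p = 0.982). Contig 2577567 matched chromosome 12 from 112777214 to 112777314 in Ahnak2, a giant scaffold protein with internal repeats, with the 15-base unit aacttgggcatcttg. It had 79, 71, 72 and 74 counts in low-low and 52, 51, 56 and 53 in standard-low. The groups did not overlap, with a ratio of 0.785, but the difference did not pass (edgeR adjusted p = 0.858). Contig 3710406 matched chromosome 15 from 98863271 to 98864090 in Mll2, a histone H3 lysine 4 methyltransferase, with a 27-base unit, and had 47 to 68 counts in low-low and 43 to 78 in standard-low. Contig 3805104 matched the X chromosome from 150647553 to 150648170 in Tro, which encodes trophinin, a protein with many decapeptide repeats, with a 60-base unit, and had 18 to 30 counts in low-low and 16 to 25 in standard-low. The groups overlapped in both.

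The other named repeats inside genes were CA repeats or had short matches. CA repeats lay in Anapc1, a subunit of the anaphase-promoting complex, at chromosome 2 from 128645927 to 128646008 (contig 1578616), in Zim1, an imprinted zinc finger gene, at chromosome 7 from 6684986 to 6685519 (contig 175790), and in N4bp1, at chromosome 8 from 86878510 to 86878589 (contig 4322552). The first had 86 to 143 counts in low-low and 70 to 107 in standard-low, the second 34 to 64 and 54 to 71, and the last 43 to 61 and 34 to 66, so the groups overlapped in each. Contig 1026305, a CA repeat with 29 CpG sites in 498 bases, lay in Ddr1, a collagen receptor kinase, at chromosome 17 from 35688470 to 35688577. It had 108, 104, 91 and 84 counts in low-low and 82, 42, 57 and 65 in standard-low, with a ratio of 0.699 and groups that overlapped (edgeR adjusted p = 0.664). Contig 326243, with a 42-base unit, lay in Adam20 at chromosome 8 from 40796816 to 40796924 and had 13 to 26 counts in low-low and 17 to 27 in standard-low.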

How the data were processed

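The authors deposited 1 table of read counts, whole numbers for each contig, from 8 MethylMiner libraries, 4 low-low and 4 standard-low, with each contig's sequence and, for some, a mouse match. FastQC and BWA are named, per the submitters' processing notes. Their versions, the assembler, the treatment of reads that map to several contigs and the mouse build were not given in the sources used here. The lowest summed count was 81, so contigs below some minimum are not in the table. Header names are separated by spaces and values by tabs, and columns were matched to libraries in header order. The labels number the libraries without saying that each is a separate animal, so p-values measure the spread between samples, which may be technical.

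The test over contigs was edgeR 4.0.16 run under R 4.3.3 (TMM factors, glmQLFTest, two-sided, standard-low over low-low, Benjamini-Hochberg adjustment over all 548060 contigs, threshold 0.05). The test was checked on simulated data. CPM of single contigs and CPM per kilobase used the library total times the TMM factor, as did CPM summed over related contigs found with BLAST. The other summed CPM, of the groups of shift, kinds of unit and unit families, used the library total. Means carry the SD over 4 libraries. Relatives were found with BLAST 2.17.0, and tables were made with Python 3.11.15, pandas 2.3.3 and numpy 2.4.6. Alternatives were limma voom (limma 3.58.1), DESeq2 1.42.0, other factors, filters, a robust fit, a replicate block, leaving out each library, a share of 0.70 and a length of at least 150 bases. A term for the 2 libraries numbered 1, and leaving both out, were added after seeing the data.

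Contigs named were all that passed the threshold. In each group of shift the 3 with the highest CPM per kilobase were added. So were the 3 with the highest counts among matches of at least 50 bases inside a gene. In each group the 2 with the largest ratio between libraries at a mean of at least 20 counts were also named. On each side of the share of 0.50, 2 were named, with ties inside it. Unit families and relatives are named beside them. The members, lists and tests were chosen with earlier results of these data known. Of the contigs so named, 1 is not reported here.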

Additional observations from a re-analysis of the deposited data

Results flagged for a closer look

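A library standing far from the other 3 of its group was looked for in the summed levels and in the called contigs and their relatives, and chance alone would mark about 1 in 20 groups. Low-low 1 was far above the other low-low libraries in the summed CPM of repeats with shifts of 1 to 6 (4436), of repeats with shifts of 39 to 60 (1463) and of CA repeats (5341). It was also far above them in contig 3222324 (6.80 CPM). Standard-low 2 was far above its group in contigs 3633790 (1.69 CPM) and 1609432 (1.60 CPM), where the other 3 standard-low libraries were near 0. Low-low 4 was far above its group in contigs 295775 (1.15 CPM) and 162925 (1.54 CPM), where the other 3 low-low libraries had no count, and far below it in contig 4435385 (0.922 CPM).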

How the results depend on the processing

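The count of 16 called repeats, of 147 contigs called in the whole table, depended on the fit and on the contigs counted. It was 9 with a robust edgeR fit (80 in the whole table), 3 with limma voom (50) and 1 with DESeq2 (32). With 1 library left out it was 3 to 25. It was 3 without low-low 2 (68 in the whole table), 6 without standard-low 1 (124) and 25 without standard-low 3 (207). Filtering at a mean of 20 counts gave 8 (81 in the whole table). This kept 6 of the 16 and lost none that it tested, the others being filtered out. At a share of at least 0.70, among 787 contigs, 5 of the 16 remained. With the replicate number as a block 28 repeats passed (206 in the whole table), and the 16 were among them. Deviations of same-numbered libraries correlated at 0.05, 0.06, 0.07 and -0.02, so the numbers were not found to pair the libraries. The best match of low-low 2 and 3 was the same-numbered library, and that of low-low 1 and 4 was not. Counts were small, so these values cannot show that a pairing is absent. Scaling by RLE factors or library totals, or a term for the 2 libraries numbered 1, kept the 16 calls, and leaving both of those libraries out kept 5. At a share of at least 0.70 the median log2 fold change of shifts 39 to 60 was -0.18, and groups did not overlap in 5.19% of contigs with shifts of 7 to 34. Among contigs of at least 150 bases, levels per length were 5.19, 5.07 and 4.93 CPM per kilobase. Leaving out 1 library, ratios of summed levels ranged from 0.926 to 1.02, 0.930 to 0.991 and 0.960 to 1.03. Over 262 refits of the named called contigs, 152 passed, 110 did not and 0 changed sign. The cause of these differences was not tested. The median repeat had a mean of 15 counts per library, and the effect of depth on the calls was not tested.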
